A study of Ogataea parapolymorpha DL-1 with 4 samples.

Results

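Transcript levels of a met4 mutant of the methylotrophic yeast Ogataea parapolymorpha were compared with those of its wild type after 2 h with cysteine, using 2 of the 4 RNA-seq libraries of the study. The study measured the transcriptome of both strains with and without a sulfur source. Strain DL-1 was grown in rich YPD medium to an OD600 of 0.3 after dilution to 0.1, then moved for 2 h to sulfur-limited B medium, either with 0.5 mM cysteine or without it. The mutant carries the alleles leu2 met4::LEU2, MET4 being disrupted or replaced by the LEU2 marker, and the wild type is leu2 [LEU2], so that both strains share the leu2 background and a LEU2 gene. Each strain and medium is represented by 1 library made from total RNA, and whether each strain is 1 clone is not given in the labels.

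The deposited table gives 1 FPKM value (fragments scaled to transcript length and to all mapped fragments, a level corrected for gene length) for each of 5448 gene rows and each library. A row was compared when it spanned at least 600 bases and averaged at least 5 FPKM over the 4 libraries, which 4495 rows (82.5%) met. The other 953 were 897 rows under 600 bases and 56 rows with low values. Differences are given as mutant minus wild type in log2(FPKM + 1), a scale that understates the change of weakly expressed genes, and a difference of 2-fold or more is a value of at least 1 in size on this scale. With 1 library per group the differences have no replicate check, so no test or error can be attached to them, and the read depth behind the values is unknown.

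As background, Met4 is the transcriptional activator of the sulfur pathway in yeasts: it has no sequence-specific DNA binding of its own and is recruited by partners such as Cbf1, Met31 and Met32. When cysteine or methionine is plentiful, the ubiquitin ligase that contains the F-box protein Met30 inactivates it, and the genes for sulfate uptake, sulfate reduction and the use of other sulfur compounds are then little transcribed. Cysteine also feeds glutathione and the iron-sulfur clusters of many metabolic enzymes.

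The zip1 row HPODL_03459, named after the Schizosaccharomyces pombe homologue of Met4 and taken here as MET4, lies on chromosome IV from 763543 to 764535 as the deposited table gives it. It was listed at 0 FPKM in the mutant with cysteine, against 202 FPKM in the wild type with cysteine, and in B medium at 0 FPKM in the mutant against 485 FPKM in the wild type. The row to its right, HPODL_05198, was also listed at 0 FPKM in the mutant with cysteine, against 2757 FPKM in the wild type. The flanking rows HPODL_03458 (784 FPKM in the mutant and 846 FPKM in the wild type) and HPODL_03460 (115 FPKM in the mutant and 114 FPKM in the wild type) were nearly equal with cysteine, while in B medium HPODL_03460 had 63.6 FPKM in the mutant and 21.1 FPKM in the wild type. LEU2, the marker and a leucine synthesis gene, stood at 810.5 FPKM in the mutant and 396 FPKM in the wild type, a difference of 1.03. One of the mating-type rows, MATA1 HPODL_04024, also separated the strains, with 38.4 FPKM in the mutant with cysteine against 0 in the wild type and 37.0 FPKM in the mutant in B medium against 0 in the wild type. It is under the length limit, and similar mating-type sequences elsewhere can share its reads. Loss of MET4, loss of signal at HPODL_05198 and a difference at the mating-type locus cannot be told apart in this design.

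With cysteine present, most transcripts were at similar levels in the 2 strains. The median difference over the 4495 rows was -0.06, and its middle 50% ran from -0.40 to 0.33. At least 2-fold higher in the mutant were 313 rows (6.96% of those compared), and 151 rows (3.36%) were at least 2-fold lower, so that 67.5% of the 464 rows past the threshold (10.3%) were higher. The split depended on scaling and length: 99.1% of the rows past the threshold were higher when each library was scaled to the same sum over all rows (TPM), and 47.0% were higher when rows under 600 bases were kept. A difference of 4-fold or more was seen in 73 rows on the higher side and 9 on the lower side. The plot of mutant against wild-type levels shows the higher rows spread along the low end of the wild-type axis. The higher side held many rows with little signal in the wild type with cysteine: 132 of its 313 rows (42.2%) were under 10 FPKM there, against 357 of all 4495 rows. On the lower side, 19 of 151 rows were under 10 FPKM in the mutant with cysteine, against 270 of all 4495 rows. Of the 44 compared rows under 2 FPKM in the wild type with cysteine, 40 counted as higher. Such rows passed the limit of 5 FPKM on the mean only through the other libraries, so this share was in part set by the filter. The lowest values were set differently in the libraries, since the first percentile over rows of at least 600 bases was 2.87 FPKM in the mutant with cysteine and 1.19 FPKM in the wild type with cysteine. The part of this floor in the higher rows was not tested.

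**Figure D1:**
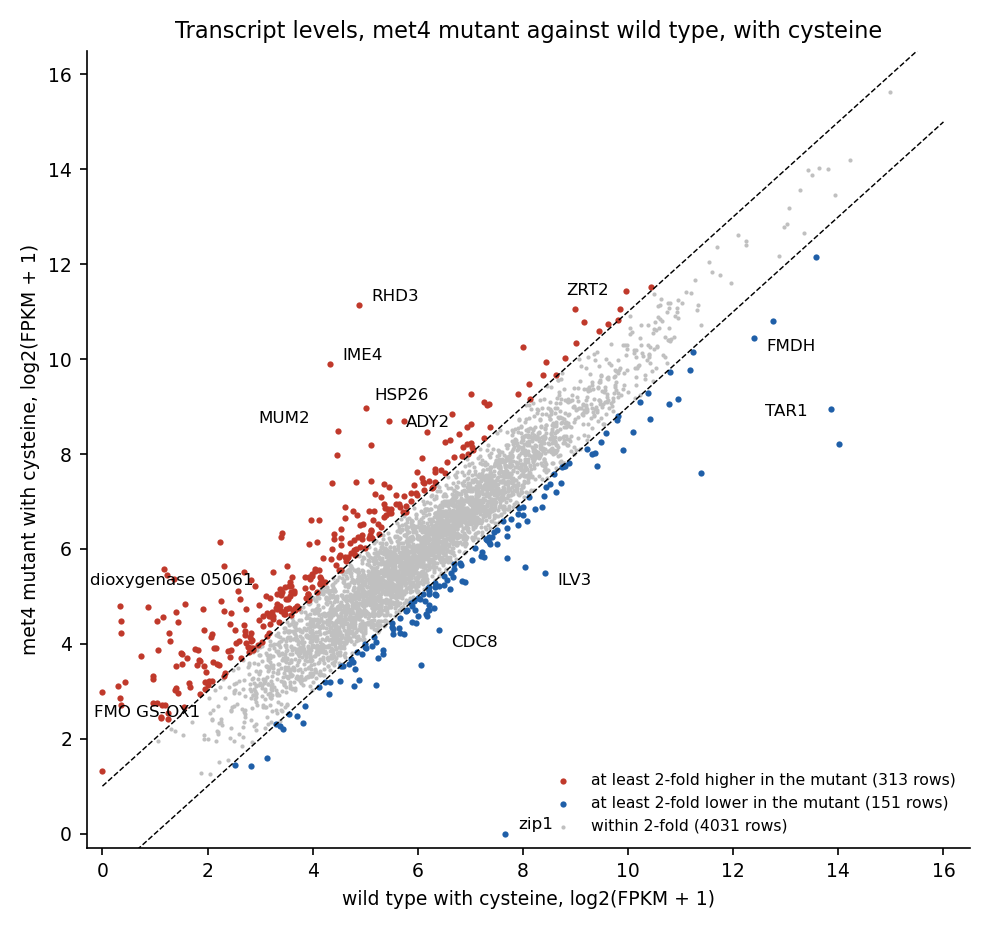
Level of each of the 4495 compared rows in the met4 mutant (vertical axis) and in the wild type (horizontal axis), both with cysteine, as log2(FPKM + 1). Points are rows, dashed lines mark a difference of 2-fold, and past 2-fold the mutant is above the wild type in 313 rows and below it in 151.

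In B medium without cysteine the same strains differed much more, with 494 rows (11%) at least 2-fold higher and 910 rows (20.2%) at least 2-fold lower in the mutant. The B-medium comparison shares no library with the cysteine comparison. Of the 313 rows higher with cysteine, 98 were also higher in B medium (31.3% of the 313, 19.8% of the 494, and 2.18% of all compared rows). Another 62 of the 313 (19.8%) were lower there, near the 20.2% of all compared rows. Among the 151 rows lower with cysteine, 70 were also lower in B medium (46.4% of the 151, 7.69% of the 910, and 1.56% of all compared rows). Another 20 of the 151 (13.2%) were higher there, against 11% of all compared rows. Across the 4495 rows the strain differences in the media had a Pearson r of 0.19, a description of rows that are not independent.

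The genes of sulfate uptake and assimilation, the core targets of Met4, did not separate the strains when cysteine was present. None of the 10 rows passed 2-fold in either direction, and their median difference was 0.04, against -0.06 over all compared rows. In B medium 7 of the same 10 rows were at least 2-fold lower in the mutant, with a median of -2.24. SUL1, the sulfate permease at the plasma membrane, had 11.8 FPKM in the mutant and 11.6 FPKM in the wild type with cysteine, and in B medium 27.1 FPKM in the mutant and 1017 FPKM in the wild type. MET3, the ATP sulfurylase that activates sulfate, had 16.8 FPKM in the mutant and 14.5 FPKM in the wild type with cysteine, against in B medium 37.4 FPKM in the mutant and 738 FPKM in the wild type. With cysteine the wild type was thus at the level of the mutant for both genes, and its B-medium library was the only one of the 4 in which either passed 40 FPKM.

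The next steps of the pathway were also close with cysteine. MET14, which phosphorylates activated sulfate, had 42.6 FPKM in the mutant and 41.1 FPKM in the wild type with cysteine, and in B medium 156 FPKM in the mutant and 548 FPKM in the wild type. The sulfite reductase subunits MET5 (44.8 FPKM in the mutant, 42.3 FPKM in the wild type) and MET10 (127 FPKM in the mutant, 97.2 FPKM in the wild type) were also close with cysteine, at differences of 0.08 and 0.38. MET16, the reductase of activated sulfate, stood at 128 FPKM in the mutant and 91.4 FPKM in the wild type with cysteine, and it was within 2-fold in B medium as well (0.43). MET1 and met8, of the siroheme cofactor of sulfite reductase, differed by -0.35 and -0.44. The largest difference of the list belonged to HAL21, a phosphatase that removes a by-product of sulfate activation, with 80.2 FPKM in the mutant and 137 FPKM in the wild type (-0.76). A second putative sulfate transporter, HPODL_04102, was at 32.0 FPKM in the mutant and 31.2 FPKM in the wild type.

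Synthesis of the sulfur amino acids was likewise close to level, with 1 of 13 rows past 2-fold (7.69%, against 10.3% of all rows) and a median of 0.07. That row was a cysteine synthase gene, cysB HPODL_02013, with 98.6 FPKM in the mutant and 216 FPKM in the wild type (-1.13). It was lower in B medium too, at 98.1 FPKM in the mutant and 335 FPKM in the wild type. The cysB row on chromosome II, HPODL_05065, had 1266 FPKM in the mutant and 1206 FPKM in the wild type, and the third cysteine synthase row, HPODL_04009, had 169.8 FPKM in the mutant and 162 FPKM in the wild type. Because these rows code for similar enzymes, reads may be shared between them.

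Around methionine, MET6, the methionine synthase, had 169.8 FPKM in the mutant and 139 FPKM in the wild type. The gene for S-adenosylmethionine synthase, sam1, showed one of the wider contrasts between the media: 264 FPKM in the mutant and 193 FPKM in the wild type with cysteine, against in B medium 218 FPKM in the mutant and 3086 FPKM in the wild type. Cystathionine beta-lyase, met-2, which turns cystathionine into homocysteine, was at 269 FPKM in the mutant and 511 FPKM in the wild type (-0.92), just inside 2-fold. The other 7 rows lay between -0.37 and 0.39: SAH1 (adenosylhomocysteinase), MET2 (homoserine acetyltransferase), MET12 and MET13 (methylenetetrahydrofolate reductases), MET7 (folylpolyglutamate synthase), mmuM (homocysteine methyltransferase) and a probable cystathionine gamma-synthase.

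Among the regulators, no compared row other than zip1 passed 2-fold. MET32, the zinc-finger partner of Met4, came closest at 34.3 FPKM in the mutant and 17.2 FPKM in the wild type (0.95). MET30, the F-box subunit of the ubiquitin ligase that restrains Met4, had 186 FPKM in the mutant and 153 FPKM in the wild type (0.28). The rows named CDC34, the ubiquitin-conjugating enzyme of the same ligase, differed by -0.09 and 0.07. In B medium MET32 (-1.36) and MET30 (-1.45) were both at least 2-fold lower in the mutant.

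**Figure D2:**
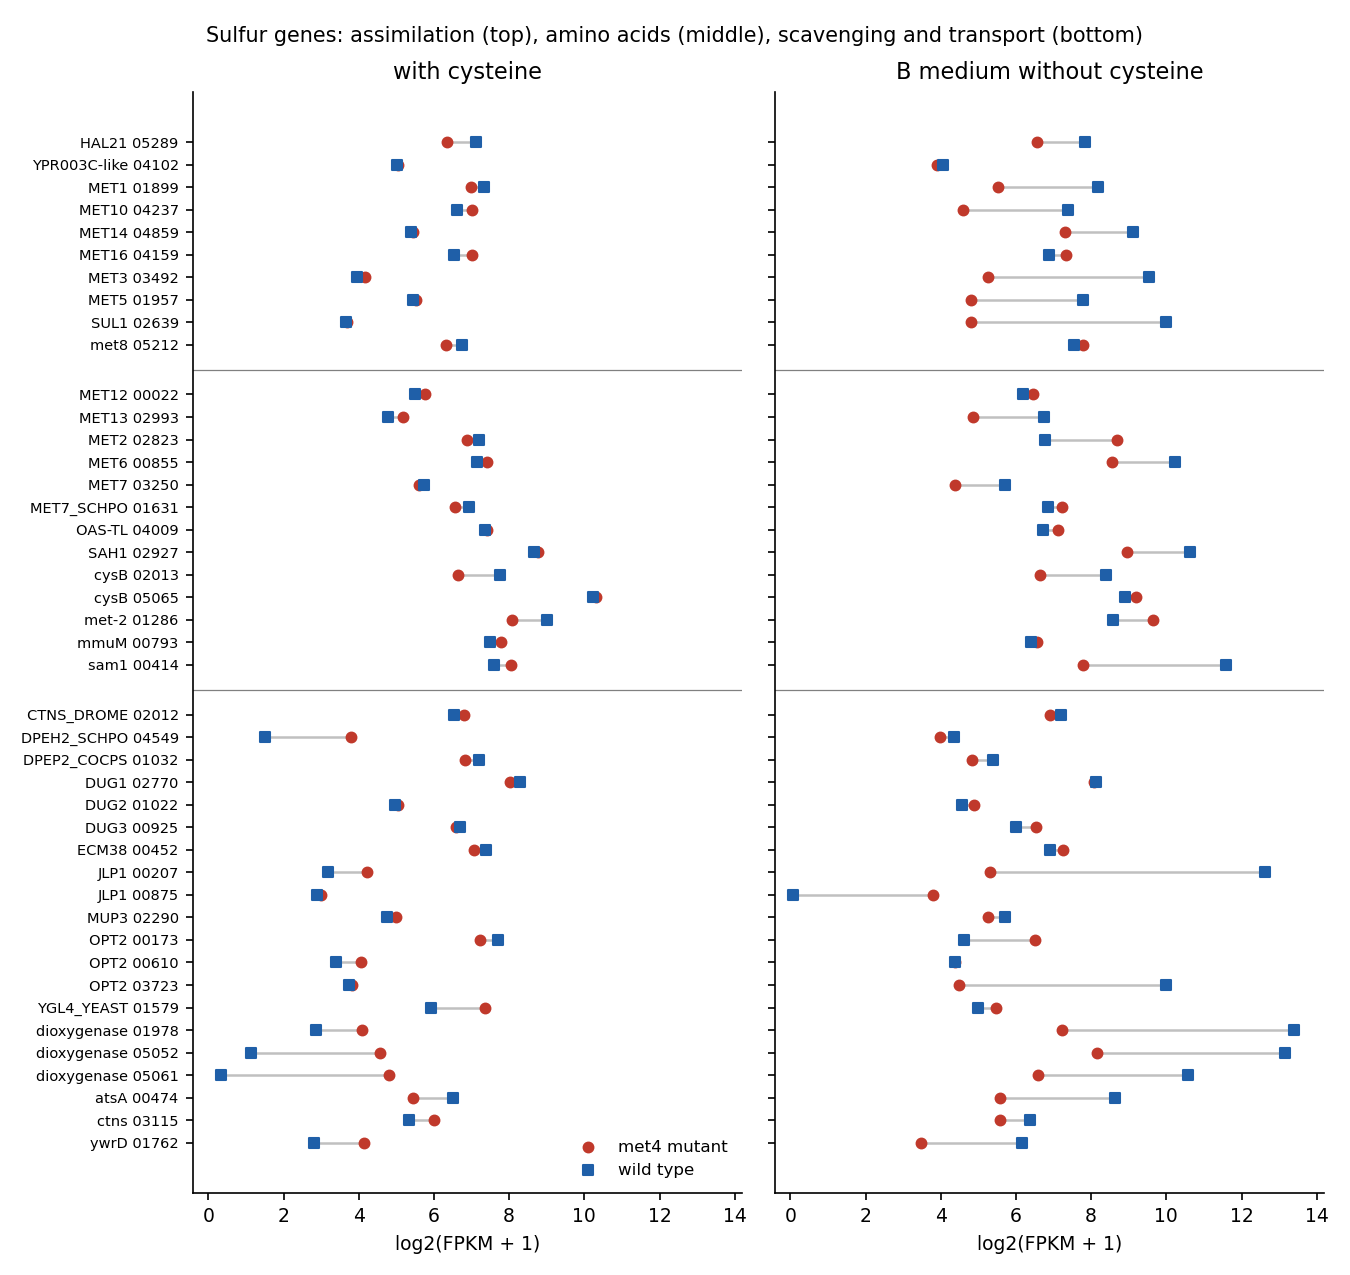
Levels of 43 sulfur rows as log2(FPKM + 1), met4 mutant (red circles) and wild type (blue squares), with cysteine (left) and in B medium (right). From top to bottom the blocks are assimilation of sulfate, synthesis of sulfur amino acids, and sulfur scavenging and transport, and with cysteine 0 of 10, 1 of 13 and 8 of 20 rows differ by at least 2-fold.

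The genes for scavenging organic sulfur were the exception. Of 20 compared rows, 7 (35%, against 6.96% of all rows) were at least 2-fold higher in the mutant with cysteine and 1 (5%, against 3.36%) was lower. The median was 0.24, and 5 of the 7 were at least 2-fold lower in the mutant in B medium. These 5 included all but 1 of the sulfonate dioxygenase rows, enzymes that release sulfite from sulfonates such as taurine. The dioxygenase row HPODL_05061 had 26.8 FPKM in the mutant and 0.254 FPKM in the wild type with cysteine (4.47), and in B medium 95.6 FPKM in the mutant and 1517 FPKM in the wild type. HPODL_05052 had 22.5 FPKM in the mutant and 1.21 FPKM in the wild type (3.41), against in B medium 286 FPKM in the mutant and 9095 FPKM in the wild type. In both rows the wild type therefore held the lowest and the highest of the 4 values, and the mutant libraries lay between them.

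HPODL_01978 (15.9 FPKM in the mutant, 6.23 FPKM in the wild type) and JLP1 HPODL_00207 (17.8 FPKM in the mutant, 8.01 FPKM in the wild type) followed the same order at smaller differences, 1.22 and 1.06. A second JLP1 row, HPODL_00875, was at 7.01 FPKM in the mutant and 6.43 FPKM in the wild type. The gamma-glutamyltransferase ywrD, of a family that breaks down glutathione, had 16.8 FPKM in the mutant and 6.03 FPKM in the wild type (1.34). A dipeptidase row, HPODL_04549, had 12.8 FPKM in the mutant and 1.85 FPKM in the wild type (2.27), and the oligopeptide transporter row HPODL_01579 had 162 FPKM in the mutant and 60.2 FPKM in the wild type (1.41). Of the 7 higher rows, 6 were under 10 FPKM in the wild type and 3 under 2 FPKM, and 3 stayed past the threshold with a pseudocount of 10 FPKM, a setting chosen after the values were seen. The lower row was atsA, an arylsulfatase that frees sulfate from sulfate esters, with 42.2 FPKM in the mutant and 89.7 FPKM in the wild type (-1.07). The glutathione-degrading enzymes ECM38, DUG1, DUG2 and DUG3 differed by -0.33, -0.25, 0.08 and -0.10. Other rows within 2-fold were the methionine permease MUP3 (0.23), the cystinosin homologues HPODL_03115 (0.64) and HPODL_02012 (0.26), a further dipeptidase (-0.36), and 3 rows named OPT2, oligopeptide transporters, between -0.49 and 0.67.

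The dioxygenase rows HPODL_05052 and HPODL_05061 belong to a run of genes at the end of chromosome II, from HPODL_05051 to the last row HPODL_05071 (949375 to 990573), which was chosen after its values were seen. Of its 21 rows, 12 (57.1%, against 6.96% of all rows) were at least 2-fold higher in the mutant with cysteine and none was lower, with a median of 1.40. In B medium 15 of the 21 were at least 2-fold lower in the mutant, and 10 rows were in both groups. The flavin-containing monooxygenase FMO GS-OX1, of a family that oxidises thioethers, had 6.89 FPKM in the mutant and was listed at 0 in the wild type with cysteine, against in B medium 9.45 FPKM in the mutant and 547 FPKM in the wild type. Its neighbour liz1, annotated as a pantothenate transporter, had 12.4 FPKM in the mutant and 0.673 FPKM in the wild type with cysteine (3.01), against in B medium 27.6 FPKM in the mutant and 1077 FPKM in the wild type. The last row, a probable transporter of the SEO1 family, had 7.21 FPKM in the mutant and 1.62 FPKM in the wild type with cysteine (1.65), against in B medium 11.5 FPKM in the mutant and 836 FPKM in the wild type.

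The run also holds rows that did not differ. The cysteine synthase row HPODL_05065 differed by 0.07, DAL4, an allantoin permease, by 0.27, and the gluconolactonase gnl by -0.02. Of the 12 higher rows, 10 were under 10 FPKM in the wild type and 9 under 2 FPKM, while 9 remained past the threshold with a pseudocount of 10 FPKM. Rows under 2 FPKM in the wild type with cysteine passed the limit on the mean only through the other libraries. Of all 44 such compared rows, 40 counted as higher, so the share of 57.1% was in part set by the filter. A similar pattern was found at the clavaminate synthase-like row HPODL_01980 near HPODL_01978 on chromosome VI, with 21.5 FPKM in the mutant and 0.273 FPKM in the wild type with cysteine (4.14), against in B medium 5.32 FPKM in the mutant and 178 FPKM in the wild type.

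**Figure D3:**
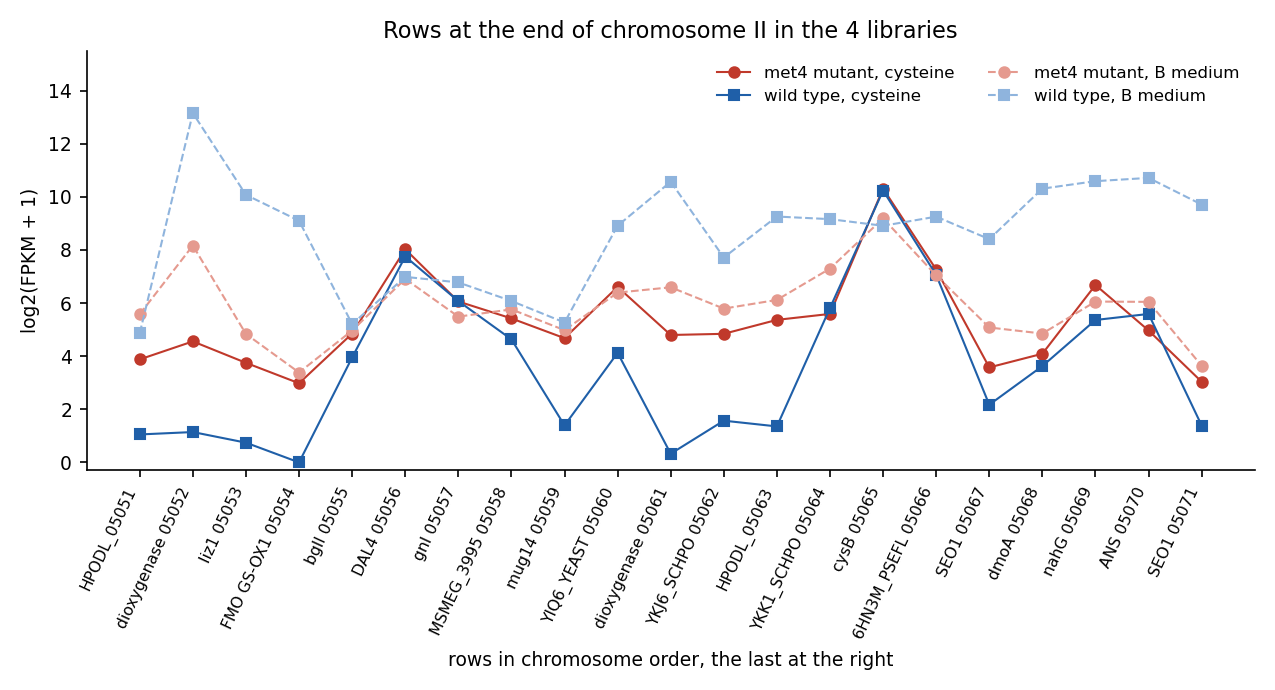
Levels of the 21 rows at the end of chromosome II in chromosome order, as log2(FPKM + 1), in the met4 mutant (circles) and the wild type (squares), with cysteine (solid lines) and in B medium (dashed lines). For 12 rows the mutant with cysteine lies at least 2-fold above the wild type with cysteine, and 10 of these are at least 2-fold below the wild type in B medium.

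Some of the largest differences on the higher side, among them the first and second of all rows, lay outside sulfur metabolism and were found in both media. RHD3, a mannoprotein of the cell wall (chromosome VI, 909292 to 910050), had 2247 FPKM in the mutant and 28.6 FPKM in the wild type with cysteine (6.25), and in B medium 1710 FPKM in the mutant and 43.5 FPKM in the wild type (5.26). IME4, the mRNA adenosine methyltransferase that in Saccharomyces cerevisiae acts at entry into meiosis, had 950.1 FPKM in the mutant and 19.1 FPKM in the wild type with cysteine (5.56), and in B medium 387 FPKM in the mutant and 35.0 FPKM in the wild type (3.43). MUM2, a partner of Ime4 in the same S. cerevisiae complex, had 358 FPKM in the mutant and 21.3 FPKM in the wild type with cysteine (4.01), and in B medium 253 FPKM in the mutant and 20.7 FPKM in the wild type (3.54). For these 3 genes both mutant libraries were above both wild-type libraries.

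KAR4, a transcription factor of mating that is also needed in S. cerevisiae meiosis, had 166 FPKM in the mutant and 19.7 FPKM in the wild type with cysteine (3.01), and in B medium 509.5 FPKM in the mutant and 35.7 FPKM in the wild type (3.80). The putative lipase row HPODL_02440, the next row after IME4, had 251 FPKM in the mutant and 20.9 FPKM in the wild type (3.52). MEK1, a kinase of meiotic recombination, had 6.21 FPKM in the mutant and 0.255 FPKM in the wild type with cysteine (2.52), and it was within 2-fold in B medium (0.42). A list of mating and meiosis genes was drawn from words in the product names, with IME4 and MUM2 added by name and some rows, such as ADY2 and mug14, left out by hand, and it was widened to meiosis after the values were seen. Of its 33 compared rows, IME4, MUM2, KAR4 and MEK1 were the 4 at least 2-fold higher (12.1%, against 6.96% of all rows). None was lower, and the median was 0.06. The next in size, mei2, differed by -0.87. Mating genes whose product names lack these words are not in the list, and of these SST2 (1.83), FUS3 (1.75) and KAR5 (1.32), picked after their values were seen, were at least 2-fold higher. The others of this kind were not counted, so these picks show no trend of mating genes as a whole. Within the list, 16 of the 33 rows were below 0. Like IME4, MUM2 and KAR4, the short MATA1 row HPODL_04024 was higher in both mutant libraries than in both wild-type libraries. Other mating-type rows were close between the strains. MATA1 HPODL_04015 had 5.35 FPKM in the mutant and 6.23 FPKM in the wild type with cysteine, and in B medium 5.40 and 6.83 FPKM. MATALPHA2 had 524 FPKM in the mutant and 590 FPKM in the wild type with cysteine, and in B medium 371 and 434 FPKM.

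Among cell wall genes, 9 of 40 compared rows (22.5%, against 6.96% of all rows) were at least 2-fold higher in the mutant with cysteine. None was lower, and the median was 0.35. After RHD3 came PHR2, a glucan-remodelling enzyme, with 70.3 FPKM in the mutant and 3.74 FPKM in the wild type (3.91), and in B medium 257 FPKM in the mutant and 17.1 FPKM in the wild type. PIR1, a structural wall protein, had 1749 FPKM in the mutant and 570.1 FPKM in the wild type (1.62), and the exoglucanase EXG1 had 41.7 FPKM in the mutant and 13.5 FPKM in the wild type (1.56). The wall protein row HPODL_02292 differed by 1.78. Of the 9 rows higher with cysteine, 3 were at least 2-fold higher in B medium as well.

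Chaperone and ergosterol genes were mostly level, with a few members past 2-fold. HSP26, a small heat shock protein that holds unfolded proteins, had 499.6 FPKM in the mutant and 31.1 FPKM in the wild type with cysteine (3.96), against in B medium 159 FPKM in the mutant and 133 FPKM in the wild type. The wild type with cysteine was thus the low library of the 4. Of 33 compared chaperone rows, HSP26, HSA1, an Hsp70-family chaperone (1.52), and HSP83-1, an Hsp90-family chaperone (1.13), were the 3 at least 2-fold higher (9.09%, against 6.96% of all rows), none was lower, and the median was 0.03. ERG25, a sterol demethylation enzyme, had 413 FPKM in the mutant and 52.7 FPKM in the wild type with cysteine (2.95), against in B medium 531 FPKM in the mutant and 622 FPKM in the wild type. ERG24 (1.03) and ERG11 (1.01), of the same pathway, just passed 2-fold, ERG1 did not (0.93), and the other 19 rows of ergosterol synthesis were within 2-fold too. The median of the 23 was -0.01, turning positive under the 4 other scalings.

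Zinc transport had the highest share among the lists not chosen by position. Of its 7 rows, 4 (57.1%, against 6.96% of all rows) were at least 2-fold higher in the mutant, none was lower, and all 7 were above 0. ZRT2, a zinc uptake transporter, had 2118 FPKM in the mutant and 504 FPKM in the wild type with cysteine (2.07), against in B medium 182 FPKM in the mutant and 219.5 FPKM in the wild type. ZAP1, the activator of zinc uptake genes, had 299 FPKM in the mutant and 128 FPKM in the wild type (1.22), ZRC1, which stores zinc in the vacuole, had 227 FPKM in the mutant and 92.5 FPKM in the wild type (1.29), and the transporter MSC2 differed by 1.40. No zinc row higher with cysteine was at least 2-fold higher in B medium.

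Of 20 rows for copper and iron uptake, 4 (20%, against 6.96% of all rows) were at least 2-fold higher, none was lower, and 18 were above 0, with a median of 0.47. The siderophore transporters mirA, with 16.8 FPKM in the mutant and 3.21 FPKM in the wild type (2.08), and str3, with 123 FPKM in the mutant and 40.0 FPKM in the wild type (1.59), led this list. They were followed by the ferric reductase CFL1 (1.17) and the manganese transporter SMF2 (1.01), and the vacuolar iron transporter FTH1 lay just inside 2-fold (0.96). In B medium 9 of the 20 were at least 2-fold higher in the mutant, including mirA, str3 and CFL1.

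Genes that take up or release nitrogen compounds were also on the higher side. Amino acid permeases had 8 of 31 rows (25.8%, against 6.96% of all rows) at least 2-fold higher and none lower, with a median of 0.36. The nitrogen list, which spans nitrate, ammonium, urea and amide use, had 10 of 33 (30.3%) higher and none lower, with a median of 0.27. A putative amidase, HPODL_02402, had 21.4 FPKM in the mutant and 1.05 FPKM in the wild type (3.45). The nitrate transporter crnA had 49.1 FPKM in the mutant and 10.4 FPKM in the wild type with cysteine (2.13), against in B medium 37.5 FPKM in the mutant and 879 FPKM in the wild type. Its neighbour niiA, the nitrite reductase, named after its value was seen, had 6.75 FPKM in the mutant and 1.69 FPKM in the wild type with cysteine (1.53), against in B medium 17.4 FPKM in the mutant and 212 FPKM in the wild type.

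The urea transporters dur3-2 (2.01) and dur3-3 (1.74) and the acetamidase amdS (1.90) were higher too. Of the permeases, DIP5 HPODL_03243, a carrier of acidic amino acids, had 14.1 FPKM in the mutant and 3.35 FPKM in the wild type (1.80), and AGP2, a general permease, had 32.1 FPKM in the mutant and 8.99 FPKM in the wild type (1.73). The vacuolar transporters YPQ2 (1.79) and AVT6 (1.51) and a second DIP5 row, HPODL_00008 (1.34), followed, and the DIP5 rows may share reads. Many of these values were low: 6 of the 10 nitrogen rows and 4 of the 8 permease rows were under 10 FPKM in the wild type with cysteine.

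Carbon metabolism showed scattered differences. Of 23 alcohol and aldehyde dehydrogenase and related rows, 7 (30.4%, against 6.96% of all rows) were at least 2-fold higher and 1 (4.35%, against 3.36%) was lower. Their median was -0.11, against -0.06 over all rows, and 14 of the 23 were below 0. In B medium 5 of the 7 were higher too. PDC6, a pyruvate decarboxylase, had 21.1 FPKM in the mutant and 1.70 FPKM in the wild type (3.03), ALD4, a mitochondrial aldehyde dehydrogenase, had 344 FPKM in the mutant and 109 FPKM in the wild type (1.65), and alcA, an alcohol dehydrogenase, had 63.0 FPKM in the mutant and 19.6 FPKM in the wild type (1.63). The row that was lower, aryl-alcohol dehydrogenase HPODL_00007, had 530.0 FPKM in the mutant and 1752 FPKM in the wild type with cysteine (-1.72), but in B medium 144 FPKM in the mutant and 23.6 FPKM in the wild type (2.56). A second aryl-alcohol dehydrogenase row, HPODL_01099, was higher with cysteine (1.77) and lower in B medium (-5.77).

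Sugar transporters had 4 of 22 rows higher (18.2%, against 6.96% of all rows) and 1 lower (4.55%, against 3.36%). They were led by the hexose transporter KHT2 with 44.8 FPKM in the mutant and 5.49 FPKM in the wild type (2.82). Glycolysis had 2 of 17 higher (11.8%) and none lower, among them the hexokinase RAG5 with 1036 FPKM in the mutant and 447 FPKM in the wild type (1.21). The pentose phosphate pathway had 3 of 11 higher (27.3%) and none lower: the ribose phosphate isomerase row RKI1 HPODL_02542 with 17.6 FPKM in the mutant and 0.271 FPKM in the wild type (3.87), a transaldolase (1.13) and RPE1, an epimerase (1.07). Isocitrate lyase ICL1, of the glyoxylate cycle, had 24.2 FPKM in the mutant and 4.46 FPKM in the wild type (2.21), and the peroxisomal isocitrate dehydrogenase IDP2 had 18.5 FPKM in the mutant and 2.81 FPKM in the wild type (2.35).

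Of 37 rows for methanol metabolism and the peroxisome, 2 were higher (5.41%, against 6.96% of all rows) and 3 lower (8.11%, against 3.36%). Formate dehydrogenase FMDH, which makes the last oxidation of methanol to carbon dioxide, had 1384 FPKM in the mutant and 5403 FPKM in the wild type with cysteine (-1.96), and in B medium 244 FPKM in the mutant and 2607 FPKM in the wild type (-3.41). Dihydroxyacetone synthase DAS, which assimilates formaldehyde, differed in the other direction, with 85.0 FPKM in the mutant and 22.2 FPKM in the wild type (1.89), and in B medium 50.1 FPKM in the mutant and 11.5 FPKM in the wild type (2.03). The peroxisomal thiolase HPODL_04502 was lower in both media (-1.49 with cysteine and -2.84 in B medium).

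**Figure D4:**
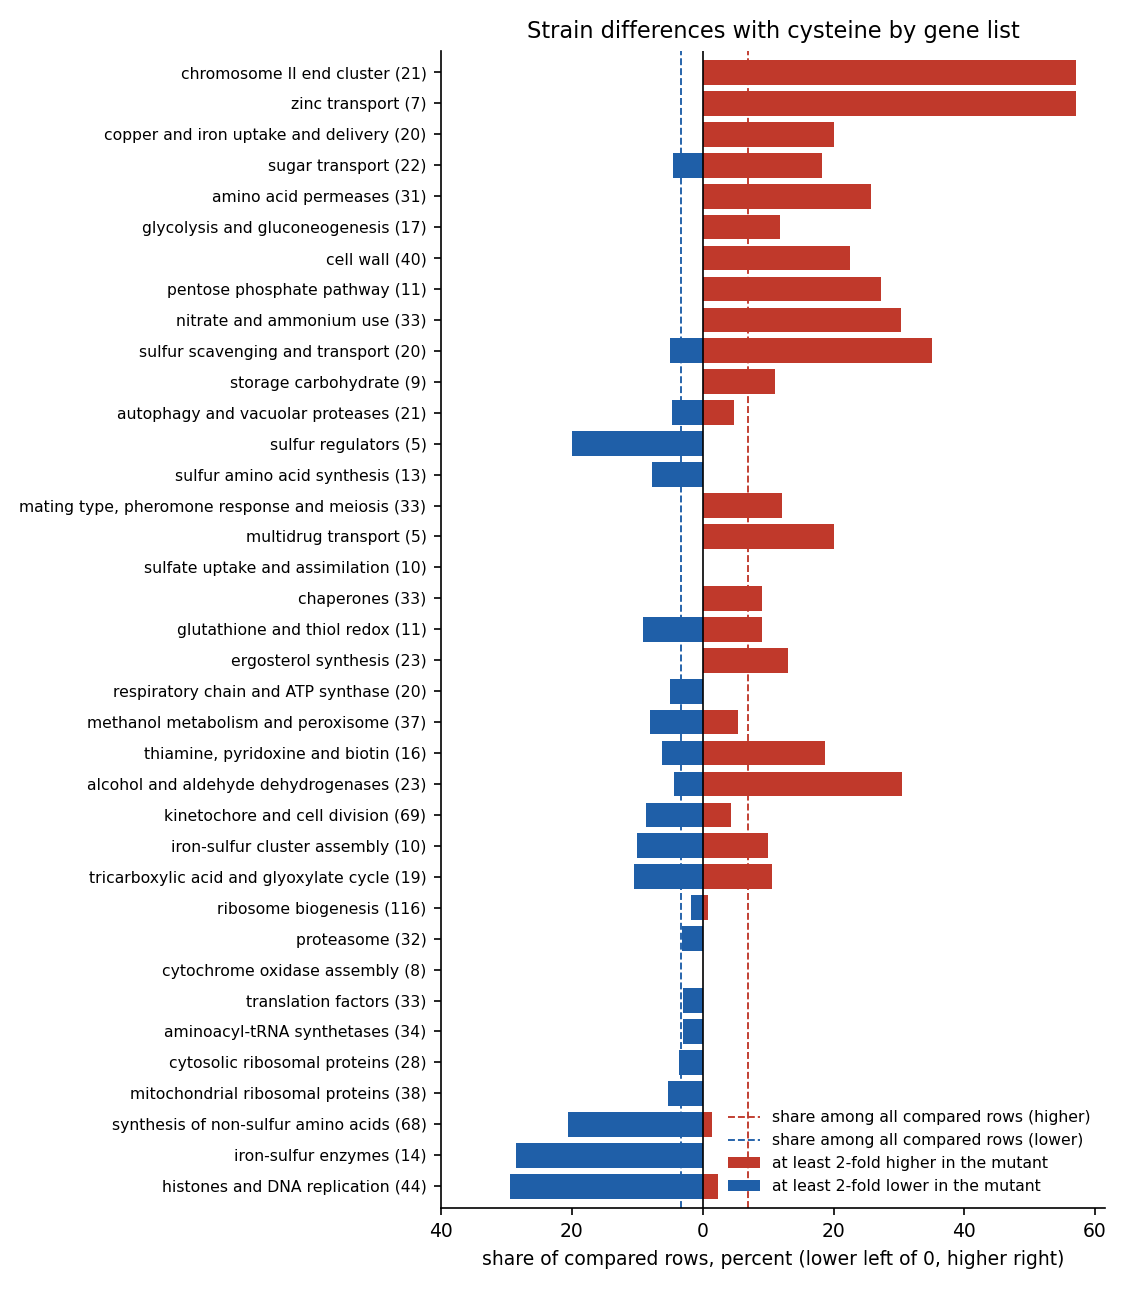
Share of the compared rows in each of 37 gene lists that are at least 2-fold higher (red, right of 0) or lower (blue, left of 0) in the met4 mutant with cysteine, ordered by the lists' median difference, with the number of rows in brackets. Dashed lines mark the shares among all 4495 compared rows, 6.96% higher and 3.36% lower, and the medians of the 19 lists below 0 turn positive under TPM scaling.

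DNA replication had the largest share of lower rows. Of 44 compared rows for histones and DNA replication, 13 (29.5%, against 3.36% of all rows) were at least 2-fold lower in the mutant with cysteine. Only 1 (2.27%, against 6.96%) was higher. The list's median was -0.58, which was 0.52 below that of all rows. Under TPM scaling the list's median turned positive (0.18), with 7 rows higher and 1 lower. It then lay 0.54 below the median of all rows. This scaling shifts all rows by nearly the same amount, so that distance could hardly change. All 13 rows lower with cysteine were at least 2-fold lower in B medium as well, where 32 of the 44 rows were. CDC8, the thymidylate kinase, had 18.5 FPKM in the mutant and 83.6 FPKM in the wild type with cysteine (-2.12), and in B medium 32.2 FPKM in the mutant and 133 FPKM in the wild type (-2.01). TMP1, the thymidylate synthase, had 17.3 FPKM in the mutant and 52.7 FPKM in the wild type with cysteine (-1.55), and in B medium 40.6 FPKM in the mutant and 198 FPKM in the wild type (-2.26). For both enzymes of thymidine nucleotide synthesis each mutant library was below each wild-type library.

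POL1, the catalytic subunit of DNA polymerase alpha, had 2.01 FPKM in the mutant and 7.71 FPKM in the wild type (-1.53), and MCM2, of the replicative helicase, had 13.6 FPKM in the mutant and 39.2 FPKM in the wild type (-1.46). The 1 higher row, POL12, another subunit of DNA polymerase alpha, had 26.2 FPKM in the mutant and 9.20 FPKM in the wild type (1.42). Outside the first 5 of the list, and chosen after their values were seen, POL30, the sliding clamp, had 56.9 FPKM in the mutant and 146 FPKM in the wild type (-1.34), and the ribonucleotide reductase subunits RNR1 and RNR2 differed by -1.09 and -1.07. Several of these rows are weakly expressed, and with a pseudocount of 10 FPKM 8 of the 13 stayed at least 2-fold lower.

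Cell division genes showed a smaller share, with 6 of 69 rows at least 2-fold lower (8.70%, against 3.36% of all rows) and 3 higher (4.35%, against 6.96%). The median was -0.14, which turned positive under TPM scaling (0.62). The 6 lower rows were lower in B medium too, and the 3 higher rows were at least 2-fold lower there. Most of the list was lower in that medium: 44 of the 69 rows were at least 2-fold lower, against 20.2% of all rows, with a median of -1.31. DCC1, of sister chromatid cohesion, had 7.60 FPKM in the mutant and 26.6 FPKM in the wild type (-1.68), and the septin CDC12 had 23.8 FPKM in the mutant and 70.0 FPKM in the wild type (-1.52). The cyclin PCL2 was on the higher side, with 13.4 FPKM in the mutant and 4.25 FPKM in the wild type with cysteine (1.46), as was the cyclin CLN3 (1.18).

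The synthesis of amino acids without sulfur was the other group with many lower rows. Of 68 rows, 14 (20.6%, against 3.36% of all rows) were at least 2-fold lower in the mutant with cysteine and 1 (1.47%, against 6.96%) was higher. The median was -0.53, or 0.47 below that of all rows. Under TPM scaling it became 0.27, with 5 rows at least 2-fold higher and 2 lower. Its distance below the median of all rows was then 0.46, which this scaling by construction leaves nearly unchanged. In B medium the balance was reversed, with 36 rows at least 2-fold higher and 11 lower and a median of 1.09. ILV3, the dihydroxy-acid dehydratase of valine, leucine and isoleucine synthesis and an iron-sulfur enzyme, had 44.3 FPKM in the mutant and 342 FPKM in the wild type with cysteine (-2.92), against in B medium 344 FPKM in the mutant and 308 FPKM in the wild type (0.16). The mutant with cysteine was thus the low library of the 4 for this gene. ILV5, the preceding enzyme of the pathway, had 271 FPKM in the mutant and 953 FPKM in the wild type with cysteine (-1.81), and in B medium 792 FPKM in the mutant and 2134 FPKM in the wild type (-1.43).

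GLY1, the threonine aldolase that makes glycine, had 569.6 FPKM in the mutant and 1967 FPKM in the wild type with cysteine (-1.79) and was within 2-fold in B medium (0.26). GDH1, the glutamate dehydrogenase that assimilates ammonium, had 426 FPKM in the mutant and 1358 FPKM in the wild type (-1.67), and GLT1, the glutamate synthase, had 12.7 FPKM in the mutant and 39.7 FPKM in the wild type (-1.57). Both were lower in B medium as well, at -3.08 and -2.60. LYS4, the homoaconitase of lysine synthesis, was one of 6 rows of the list that were lower with cysteine and higher in B medium, with 23.1 FPKM in the mutant and 62.8 FPKM in the wild type with cysteine (-1.41), against in B medium 324 FPKM in the mutant and 85.5 FPKM in the wild type (1.91).

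A list of enzymes that carry iron-sulfur clusters, drawn up after the values were seen, had 4 of 14 compared rows (28.6%, against 3.36% of all rows) at least 2-fold lower. Its median of -0.56 became 0.23 under TPM scaling, where 3 rows were higher and 1 lower. The 4 lower rows without that scaling were ILV3, GLT1, LYS4 and SDH2, the iron-sulfur subunit of succinate dehydrogenase, which had 55.9 FPKM in the mutant and 152 FPKM in the wild type (-1.43). The first 3 are also counted among the amino acid synthesis rows. The list does not hold every such enzyme. Of those not in it, niiA (1.53) and the DNA repair helicase RAD3 (1.29) were higher. The DNA primase subunit PRI2 (-1.37) and the DNA polymerase subunit POL3 (-1.34), also not in it, were lower. These were picked after their values were seen. LEU1, the isopropylmalate dehydratase, was just inside 2-fold at 222 FPKM in the mutant and 441 FPKM in the wild type (-0.99), and aconitase ACO1 had 118 FPKM in the mutant and 211 FPKM in the wild type (-0.83). Of 10 compared rows for assembling these clusters, 1 was higher (10%, against 6.96% of all rows) and 1 lower (10%, against 3.36%). ATM1, the mitochondrial exporter, had 29.9 FPKM in the mutant and 10.5 FPKM in the wild type (1.42), and the scaffold-type protein NFU1 had 273 FPKM in the mutant and 593 FPKM in the wild type (-1.12). NFS1, the cysteine desulfurase that supplies the sulfur, differed by 0.34.

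**Figure D5:**
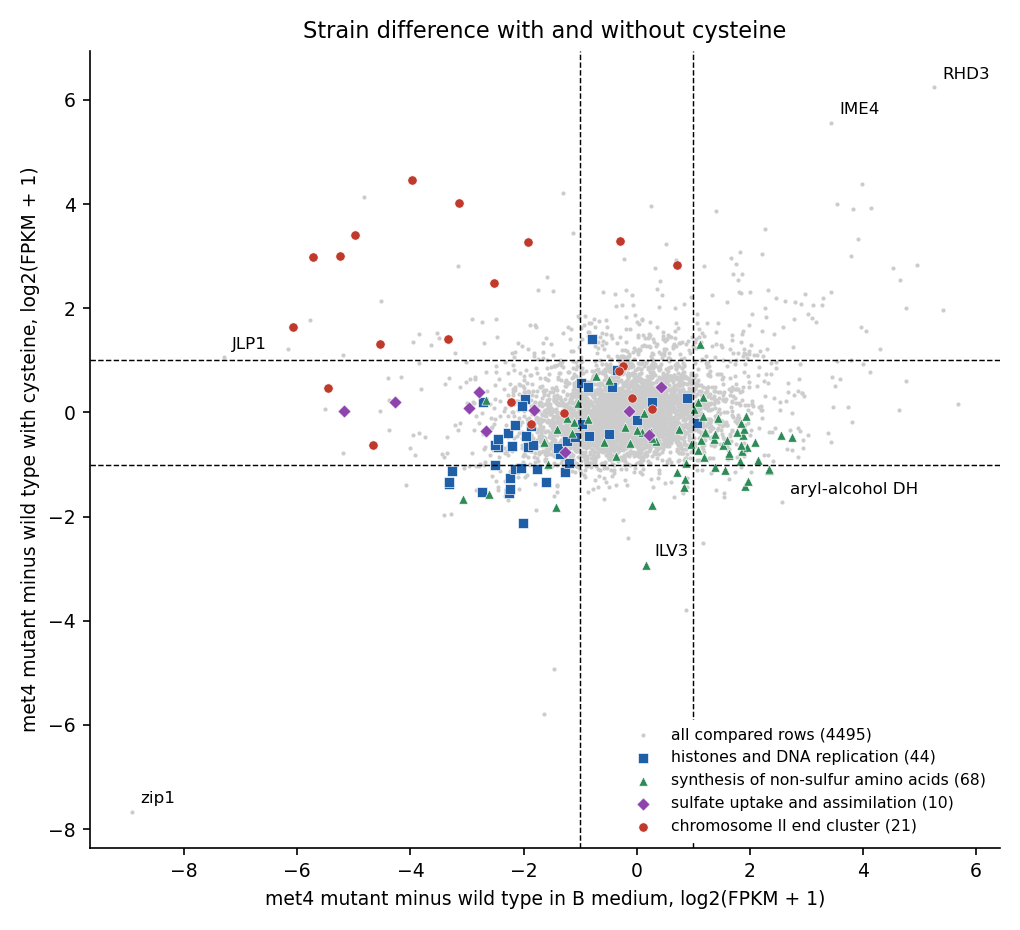
Difference between met4 mutant and wild type with cysteine (vertical axis) and in B medium (horizontal axis), both in log2(FPKM + 1), for the 4495 compared rows, with dashed lines at 2-fold. Replication rows (blue squares) lie mostly below 0 in both media (median -0.58 with cysteine, where 13 of 44 are at least 2-fold lower, and -1.90 in B medium). Amino acid synthesis rows (green triangles) lie mostly lower with cysteine and higher in B medium (median -0.53 with cysteine and 1.09 in B medium). For both lists the median with cysteine is positive under TPM scaling. Rows at the end of chromosome II (red circles) lie high with cysteine and low in B medium.

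The translation machinery stayed close to level with cysteine, with slightly negative medians. Over all compared rows 3.36% were at least 2-fold lower and 6.96% higher. At least 2-fold lower were 1 of 28 cytosolic ribosomal protein rows (median -0.29), 2 of 38 mitochondrial ribosomal protein rows (-0.37), 2 of 116 ribosome biogenesis rows (-0.22), 1 of 34 aminoacyl-tRNA synthetase rows (-0.28), 1 of 33 translation factor rows (-0.27) and 1 of 32 proteasome rows (-0.23), and the medians of all 6 lists were positive under TPM scaling. The 1 row of these lists that was higher was RRN6, an RNA polymerase I factor (1.28). RPS28A, a small-subunit ribosomal protein, had 1776 FPKM in the mutant and 6891 FPKM in the wild type with cysteine (-1.96), and in B medium 3947 FPKM in the mutant and 38528 FPKM in the wild type. Without cysteine 17 of the 28 cytosolic ribosomal protein rows were at least 2-fold lower. The list is only partly seen, because 50 of its 78 rows are under 600 bases. Short rows differed with length: the median difference was -2.22 for rows under 300 bases, -0.92 for rows of 300 to 399 bases, -0.41 for rows of 400 to 599 bases and -0.16 for rows of 600 to 799 bases. From 800 to 1999 bases it lay between -0.02 and 0.03, and it was -0.10 for rows of 2000 to 2999 bases and -0.29 for rows of at least 3000 bases. Rows under 600 bases held 36.8% of the FPKM sum in the mutant with cysteine and 62.4% in the wild type with cysteine, and the part of this trend in the results was not tested.

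Among the lowest differences of all, zip1 was followed by HPODL_05381 and TAR1, neighbouring rows on chromosome I. TAR1, which in S. cerevisiae is encoded within the ribosomal RNA repeat, had 491 FPKM in the mutant and 14923 FPKM in the wild type with cysteine (-4.92), and in B medium 483 FPKM in the mutant and 1331 FPKM in the wild type. The wild type with cysteine was the high library of the 4 by a wide margin, and whether leftover ribosomal RNA sets this value was not tested. ALY2, an arrestin that directs the trafficking of permeases, had 10.8 FPKM in the mutant and 66.1 FPKM in the wild type with cysteine (-2.51), against in B medium 19.8 FPKM in the mutant and 8.29 FPKM in the wild type (1.16). The acetyltransferase row ppr1 had 48.1 FPKM in the mutant and 262 FPKM in the wild type with cysteine (-2.42), against in B medium 173 FPKM in the mutant and 191 FPKM in the wild type. Of the 15 lowest rows 4 had no described product, and of the 15 highest 3 had none. The acetate transporter family row ADY2, a little below the 15 highest, had 414 FPKM in the mutant and 42.9 FPKM in the wild type with cysteine (3.24), against in B medium 337 FPKM in the mutant and 234 FPKM in the wild type. It was named after its value was seen. An uncharacterised transporter row among the 15 highest, HPODL_04882, had 42.8 FPKM in the mutant and 1.35 FPKM in the wild type with cysteine (4.22), against in B medium 46.8 FPKM in the mutant and 117 FPKM in the wild type (-1.31).

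The remaining lists held few rows past the threshold, set against 6.96% higher and 3.36% lower over all compared rows. In glutathione and thiol redox, 1 of 11 compared rows was higher and 1 lower. They were the thioredoxin reductase trxB, with 2950 FPKM in the mutant and 1389 FPKM in the wild type (1.09), and the peroxiredoxin DOT5, with 28.8 FPKM in the mutant and 59.7 FPKM in the wild type (-1.03). GCS1, the first enzyme of glutathione synthesis, was at 92.5 FPKM in the mutant and 147 FPKM in the wild type (-0.66). This redox list is only partly seen, because 14 of its 25 rows are under 600 bases. The list of the tricarboxylic acid and glyoxylate cycles had 2 of 19 rows higher, ICL1 and the peroxisomal IDP2, and 2 lower, SDH2 and the mitochondrial isocitrate dehydrogenase IDP1 (-1.35). In vitamin synthesis and uptake, 3 of 16 rows were higher and 1 was lower, THI13, of thiamine synthesis, with 4551 FPKM in the mutant and 12269 FPKM in the wild type (-1.43), while THI73, annotated as a thiamine pathway transporter, had 17.6 FPKM in the mutant and 1.40 FPKM in the wild type (2.96).

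Of 21 autophagy and vacuolar protease rows, ATG17 was higher (1.37) and ATG33 lower (-1.09), each 4.76% of the list, against 6.96% higher and 3.36% lower over all rows. Storage carbohydrate had 1 of 9 rows higher, glycogenin Gyg1 (1.27), and multidrug transport 1 of 5, the drug resistance row HPODL_03323 (1.80). The respiratory chain had 1 of 20 compared rows lower, SDH2, and none higher, and none of the 8 compared rows for cytochrome oxidase assembly passed 2-fold. Both lists are only partly seen, because 33 of 53 respiratory rows and 11 of 19 assembly rows are under 600 bases. Their medians were -0.03 and -0.24, and with no minimum length they were -0.35 and -0.79.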

How the data were processed

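Samples were grouped by the genotype and medium labels, and table columns were matched by the sample descriptions. The FPKM values are those the authors deposited. The submitters' processing notes name Cufflinks 2.1.1, Cuffdiff and TopHat without their roles, and for genome build, annotation and strand setting the sources used here give nothing. All 4495 compared rows carry locus tags of the RefSeq gene table (assembly Hansenula_2), and names, products and coordinates are those of the deposited table, of whose compared rows 574 have no described product. Length is end minus start plus 1, with any introns. Low values showed no whole-read steps, so depth was not recovered. The deposited marks of differential expression were not used.

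Differences were computed in log2(FPKM + 1) with Python 3.11.15, pandas 2.3.3 and numpy 2.4.6, by a script tested on simulated data, with no test since each group has 1 library. Named genes were the label checks, all members of the 4 sulfur lists, the 15 highest and 15 lowest rows, up to 5 members of each other list by size of difference, and 5 rows each way that differ in opposite directions between the media. Other names are marked as chosen after their values were seen. The rows, lists and members were chosen with earlier results of these data known, and the mating-type list was widened to meiosis after the values were seen. The alternatives were other pseudocounts, filters on the mean and on length, scalings between libraries and removal of the length trend.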

Additional observations from a re-analysis of the deposited data

Results flagged for a closer look

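The strain difference turned direction between the media, by at least 2-fold each way, in 62 rows that were higher and 20 that were lower in the mutant with cysteine. These counts are near the shares over all rows. The 62 were 19.8% of the rows higher with cysteine, while 20.2% of all compared rows were lower in B medium. The 20 were 13.2% of the rows lower with cysteine, while 11% of all compared rows were higher in B medium. The 5 widest on each side follow, as the strain difference with cysteine minus that in B medium in log2(FPKM + 1). With 1 library per group these differences were not tested.

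On the side that was higher in the mutant with cysteine and lower in B medium, the clavaminate synthase-like row HPODL_01980 differed by 8.97, the sulfonate dioxygenase rows HPODL_05061 and HPODL_05052 by 8.45 and 8.40, and JLP1 HPODL_00207, also a sulfonate dioxygenase, by 8.35. FMO GS-OX1 HPODL_05054 differed by 8.69, a value that depends on the pseudocount because the row is listed at 0 in the wild type with cysteine. In all 5 rows the wild type with cysteine was the lowest of the 4 libraries, under 10 FPKM, and the wild type in B medium was the highest, at 178 to 9095 FPKM.

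On the other side, the aryl-alcohol dehydrogenase row HPODL_00007 differed by -4.29, the permease-trafficking arrestin ALY2 by -3.67, the histidine synthesis enzyme HIS7 by -3.44, and the lysine synthesis enzymes LYS21 HPODL_02806 and LYS4 by -3.42 and -3.31. LYS21, homocitrate synthase, had 1143 FPKM in the mutant and 2413 FPKM in the wild type with cysteine, against in B medium 4203 FPKM in the mutant and 826 FPKM in the wild type.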

How the results depend on the processing

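The count of rows at least 2-fold lower with cysteine became 396 with no minimum length and 86 with rows of at least 1000 bases, and the count lower in both media became 266 and 41. Under TPM scaling, which moves the median of all compared rows by 0.78, there were 1391 higher, 13 lower, 806 higher in both media and 3 lower in both. With a pseudocount of 10 FPKM, chosen after seeing the data, these counts were 173, 91, 58 and 38. The other counts stayed within 1.5 times of those reported under the 13 alternatives. Of 122 named genes past 2-fold, none reversed where compared. That outcome was close to fixed in advance. A filter leaves a gene's value unchanged, a pseudocount keeps its sign, and the largest shift of the median, 0.78, is below the threshold of 1. Only 94 of the 122 were long enough for the limit of 1000 bases, and 115 passed a mean of 10 FPKM. Of the 122, 35 fell short of 2-fold with a pseudocount of 10 FPKM, 31 under TPM scaling and 18 with a pseudocount of 5 FPKM. All 19 lists with a negative median had a positive one under TPM scaling, and the 15 below the median of all rows stayed below it. The latter was nearly fixed in advance, because TPM scaling shifts all rows by almost the same amount. For thiol redox, methanol, respiratory and ergosterol genes the median, close to 0, turned positive under all 4 scalings. The low-value floor and unknown depth limit rows under 10 FPKM most. No paired analysis was possible because each group has 1 library and the labels carry no replicate numbers.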

Other observations

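Further rows with described products were at least 2-fold higher in the mutant with cysteine. They were picked from all such rows after their values were seen, and they support no theme. SLT2, the last kinase of the cell wall integrity pathway, had 615 FPKM in the mutant and 127 FPKM in the wild type with cysteine (2.26), and in B medium 488 FPKM in the mutant and 192 FPKM in the wild type (1.34). RLM1, a transcription factor that Slt2 activates in S. cerevisiae, had 116 FPKM in the mutant and 23.5 FPKM in the wild type with cysteine (2.26), and was within 2-fold in B medium (0.44). MSG5, a phosphatase of such kinases, differed by 1.72 with cysteine and 1.44 in B medium. SST2, which damps pheromone signalling, had 27.0 FPKM in the mutant and 6.88 FPKM in the wild type with cysteine (1.83) and was higher in B medium too (2.29), and KAR5, of nuclear fusion in mating, differed by 1.32 and 1.40. FUS3, the pheromone pathway kinase, was higher with cysteine (1.75) and within 2-fold in B medium (-0.66).

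Other rows picked in the same way were within 2-fold in B medium and higher with cysteine. OLE1, the fatty acid desaturase, had 1214 FPKM in the mutant and 254 FPKM in the wild type with cysteine (2.25), against in B medium 2366 FPKM in the mutant and 2494 FPKM in the wild type (-0.08). HEM13, of heme synthesis, had 544 FPKM in the mutant and 152 FPKM in the wild type with cysteine (1.84), against in B medium 706 FPKM in the mutant and 802 FPKM in the wild type (-0.18). Other heme synthesis genes were lower with cysteine, HEM3 by a difference of -1.34 and HEM4 by -1.10. AFT2, an activator of iron uptake genes, had 354 FPKM in the mutant and 70.8 FPKM in the wild type with cysteine (2.31), against in B medium 119 FPKM in the mutant and 179 FPKM in the wild type (-0.59). The wild type with cysteine was the lowest of the 4 libraries for OLE1, HEM13 and AFT2.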
